A study of Mus musculus with 8 samples.

Results

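The 200 most abundant TEC transcripts of the mouse heart were examined in WT and Mettl3 KO animals. TEC is the Ensembl biotype for loci, mostly of a single exon, that rest on expressed sequence tags and polyadenylation evidence and were set aside for experimental testing. The deposited gene table held 23045 rows, of which 1721 carried this biotype, and the 200 with the highest mean over the 8 libraries were taken as members. The members were thus chosen by their mean level over both genotypes, so their levels are a description and the difference between genotypes was not used. RNA came from hearts of Mettl3 lox/lox mice (WT, n = 4) and of Mettl3 lox/lox mice that also carry the αMHC-MerCreMer transgene (Mettl3 KO, n = 4), in which a cardiomyocyte promoter drives a tamoxifen-activated Cre recombinase. Both genotypes received tamoxifen at 100 µg per g body weight on 7 days, starting at an age of 10 to 16 weeks. The transgene was present in the Mettl3 KO hearts alone, so its own effect and that of the Mettl3 deletion cannot be told apart. Each library is labelled as a separate sample, and total RNA was sequenced after a strand-preserving preparation.

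METTL3 is the catalytic subunit of the nuclear methyltransferase that places N6-methyladenosine (m6A) on nascent and mature transcripts, mostly in a GGAC-type sequence context. It can act on chromatin, where introns are still part of the RNA. A TEC locus inside an intron lies in RNA that the host gene also makes on the same strand. The counting behind the table gave a read to the row whose exon it fell on, so a separate TEC transcript and unspliced or intron-retaining host RNA cannot be told apart in a TEC value.

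Library sums of the normalised counts ranged from 2839589 to 2881849 (WT) and from 2840184 to 2916986 (Mettl3 KO). Mettl3 itself ranged from 105 to 133 in WT hearts and from 68 to 78 after the deletion, and was lower by -0.67 ± 0.10 on the log2 scale (SE, adjusted p = 0.000184 in limma). Esr1, whose ligand-binding domain is part of the MerCreMer fusion, was at 13 to 20 in WT and at 693 to 851 in Mettl3 KO. Of 8 fibroblast markers 7 were called higher in Mettl3 KO, with a summed level of 3648 to 4172 in WT and 4711 to 5671 in Mettl3 KO. Of 8 endothelial markers 4 were called lower (5172 to 5361 against 4466 to 4867), and 1 each of 8 smooth muscle and pericyte markers (Abcc9, sum 4502 to 4901 against 4191 to 4496) and 8 macrophage markers (Cd163, sum 1295 to 1582 against 1309 to 1537). Of 8 cardiomyocyte markers, with a sum of 90581 to 97179 against 87923 to 98408, the one called was Ryr2, which was lower (9666 to 10427 against 7975 to 9017). The 6 nuclear RNAs, among them Malat1 and Neat1, summed to 9207 to 10218 and 9339 to 10927, with a median log2 fold change of 0.11. With the normalised values treated as counts, pairs of libraries of 1 genotype differed by a chi-square per degree of freedom of 1.14 to 2.07 and pairs of different genotypes by 2.29 to 3.35. Mettl3 KO library 1 stood apart from the other 3 of its genotype (1.72 to 2.07, against 1.14 to 1.20 among those 3). WT library 3 stood apart less evenly (1.28 to 1.79, against 1.17 to 1.35 among the other 3 WT libraries). The summed level, number of calls and median changes over all members are also given without Mettl3 KO library 1 and without WT library 3. In whole tissue, fewer cells of a type and less RNA per cell cannot be told apart.

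Members were mostly unnamed loci inside the introns of protein-coding genes. Of the 200, 171 had a Gm name and 28 a Rik name. Their length ran from 612 to 8163 bases with a median of 2936.5, and all 200 consisted of a single exon in GENCODE M21. In the coordinates of the table (mm39), 174 (87%) lay wholly inside a protein-coding gene on the same strand. By gene identifier, 166 of these 174 fell in an intron of that gene in GENCODE M21, 3 overlapped an exon of a coding transcript and 3 an exon of a non-coding transcript of it, and for 2 the host was absent from that annotation. Another 3 members began within 5 kb downstream of a coding gene, 6 within 50 kb, 2 overlapped a coding gene on the opposite strand alone and 15 lay apart from coding genes. Of these 26, 16 overlapped an lncRNA row on the same strand, in 9 lncRNA rows. The limit given above for host RNA applies to them as well. The 174 fell in 121 host genes, of which 31 held 84 members and 90 held 1 each. Chromosome 1 carried 32 members (16%), chromosome 3 carried 30 (15%) and chromosome 5 carried 23 (11.5%). Of the other TEC rows, these chromosomes carried 14.8%, 9.73% and 17.4%.

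The last 30 bases of a member are shown because a polyadenylation signal there would mark a conventional 3′ end. AATAAA or ATTAAA, searched on the strand of the transcript, occurred there in 32 of 200 members (16%), in 25.4% of all TEC transcripts and in 44.1% of protein-coding transcripts of GENCODE M21. The share was 14.9% (26 of 174) among members inside a coding gene and 23.1% (6 of 26) among the others. A match is no more than a match of letters, and its absence says only that these letters are not in this window. The ends below were read from GENCODE M21 transcripts (GRCm38) by gene identifier, with a signal in capitals. They belong to 5 members called lower below and 3 called higher. They do not stand for the rest, since 26 of the 32 members with a signal lie inside a coding gene, 6 of the 26 outside have one, and so do 3 of the 8 members called higher and 1 of the 17 called lower.
Gm47493: acattgggaaccgagttggggtcctctagt
Gm43359: aggttaagacttttggggaaaaaaacagct
Gm42583: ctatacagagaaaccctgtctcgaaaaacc
Gm42993: ttaaccaaataatatatagttggaaaagtc
Gm36638: accactttaataccAATAAAcactaattgt
Gm37829: gtgcacatgaAATAAAatatttctgaagcg
Gm37694: ctggattactaagtgtgtcagagcaactgc
Gm47155: cttgggaattgtcaAATAAAcaataacttt
The pentamer GGACT, a frequent context of m6A, was counted over the whole transcript on the same strand. It occurred at a mean of 0.784 per kb in members, 0.867 in all TEC transcripts and 1.15 in protein-coding transcripts, and at 0.606 per kb in the members called lower below, 0.777 in those called higher and 0.802 in those not called. The share of transcripts that hold it at least once, which also depends on length, was ordered otherwise, at 84% of members, 72.4% of all TEC transcripts and 78.7% of protein-coding transcripts. It was 82.4% of the 17 members called lower, 75% of the 8 called higher and 84.6% of those not called. These motif figures were not tested.

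Mean normalised counts of the members ran from 46.125 to 540.25 with a median of 70.4, and per kb of transcript from 6.29 to 249 with a median of 26.0. The highest mean belonged to Gm47493 (chr13:12062228-12066941, minus strand), in an early intron of Ryr2, the calcium release channel of the sarcoplasmic reticulum. Second was Gm43359 (chr5:122620863-122623062, minus strand), in an intron of Atp2a2, which encodes the calcium pump that refills that store. Gm37829 (chr7:81180057-81182269, minus strand) followed and began 787 bases beyond the end of Fsd2. Per kb, Gm43359 (227) and Gm37829 (192) stood above Gm47493 (115).

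The other members among the 10 most abundant did not share a direction. Gm37677, in Ppp1r12b (a regulatory subunit of myosin phosphatase), averaged 377.5 ± 27.4 in WT and 363 ± 41.3 in Mettl3 KO (SD, n = 4 each). Gm43185, in Nexn (the Z-disc protein nexilin), averaged 303.75 ± 16.2 and 296 ± 27.3. Gm45223, in Picalm (a clathrin assembly protein), averaged 281.5 ± 37.5 and 272.75 ± 21.2. For these 3 the genotypes overlapped and the sign of the small difference turned when 1 library was left out (Mettl3 KO library 1 for Gm37677 and Gm43185, WT library 1 for Gm45223). Gm37589, in Mbnl1 (a splicing regulator), averaged 255 ± 19.4 and 240.75 ± 7.97. Gm37320 lay apart from coding genes on chromosome 15 and averaged 329.25 ± 11.7 in WT and 375 ± 27.9 in Mettl3 KO (adjusted p = 0.0673, limma, and 0.0296 without Mettl3 KO library 2). Gm44250 began 366 bases downstream of Pon3, which encodes a paraoxonase, and averaged 276.5 ± 24.8 and 290.25 ± 12.0. Gm37033, the remaining one, is described with the lower members.

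Summed over the 200 members, the level was 19969, 19168, 19663 and 20126 in the WT libraries and 17187, 18209, 18211 and 18559 in the Mettl3 KO libraries. The genotypes did not overlap, and the Mettl3 KO mean was 91.4% of the WT mean, 92.9% without Mettl3 KO library 1, which had the lowest sum, and 91.3% without WT library 3. As a share of all normalised counts the members took 0.690% ± 0.0136 in WT and 0.627% ± 0.0273 in Mettl3 KO (SD, n = 4 each). By position the sums went opposite ways. The 174 members inside coding genes summed to 16576 to 17373 in WT and to 14328 to 15580 in Mettl3 KO, 88.6% of WT and without overlap. Their 121 host genes summed to 96413 to 99597 and 95238 to 99004, 99.6% of WT with overlapping genotypes. The 26 members outside coding genes summed to 2592 to 2793 in WT and 2859 to 3083 in Mettl3 KO, 109% of WT, also without overlap. These 26 include 7 of the 8 members called higher below, and their sum without those 7 was not taken. Without Mettl3 KO library 1 the sums inside and outside coding genes were 90.1% and 110.1% of WT, and without WT library 3 they were 88.4% and 109.6%. No test was run on these sums.

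**Figure D1:**
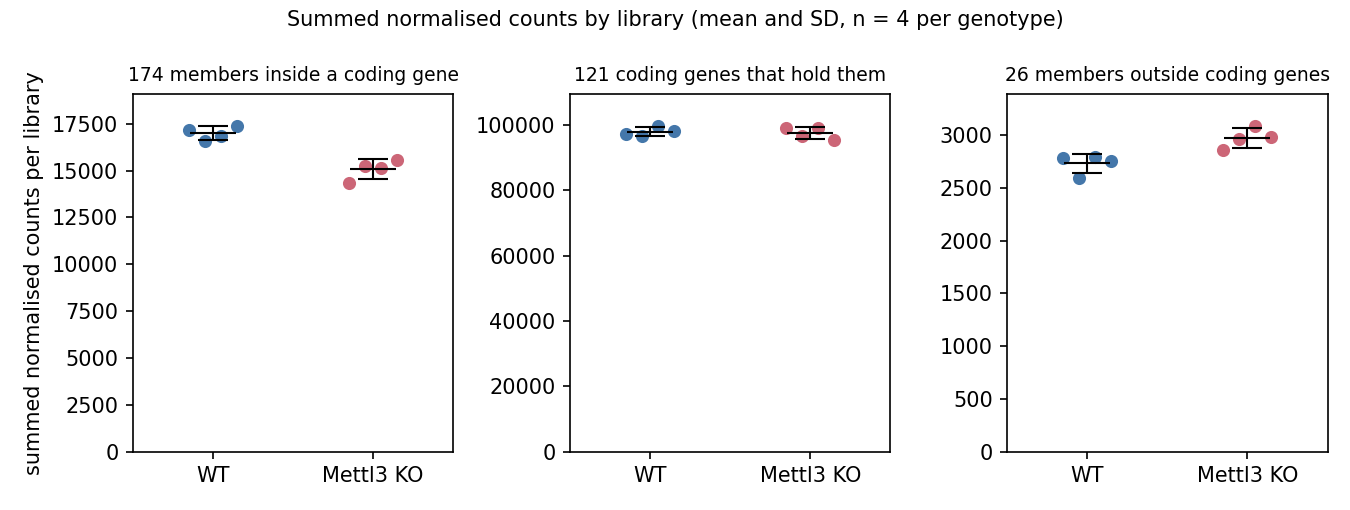
Summed normalised counts per library (y axis, from 0) in WT and Mettl3 KO hearts for the 174 members inside a coding gene, their 121 host genes and the 26 members outside coding genes; points are libraries, bars the mean and SD. Members inside coding genes reached at most 15580 in Mettl3 KO and at least 16576 in WT, while the sums of their host genes overlapped.

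Row by row, 25 of 200 members (12.5%) passed an adjusted p of 0.05 in limma, fitted on log2(normalised count + 1) over 20313 rows. Of these, 8 (4%) were higher and 17 (8.5%) lower in Mettl3 KO, or 5 higher and 20 lower with upper quartile scaling. The count was 24 (6 higher, 18 lower) without Mettl3 KO library 1, 18 (4 higher, 14 lower) without WT library 3, 16 without WT library 2 and 13 without Mettl3 KO library 3, and the higher calls were 1 to 6 when any 1 library was left out. Over all rows tested 7.91% were called, 4.72% higher and 3.19% lower. The members' share of lower calls was above that of all rows and their share of higher calls near it. Calls depend on level, and among the 9602 rows with a mean at least as high as the lowest member 13.2% were called, 8.15% higher and 5.06% lower. Against these rows the members were called higher less often (4%) and lower more often (8.5%). Among the 225 lncRNA rows of that level the shares were 5.78% higher and 11.1% lower, and among the 1328 other TEC rows tested 0.452% and 0.979%. A raised share of lower calls was therefore not particular to the members. The genotypes did not overlap for 5 members that were higher (2.5%) and 29 that were lower (14.5%). Over all rows these shares were 6.46% and 5.04%, and over those 9602 rows they were 10.6% and 7.65%. Among the 225 lncRNA rows they were 6.67% and 11.6%.

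The median log2 fold change of the 200 members was -0.12 (-0.11 without Mettl3 KO library 1 and -0.14 without WT library 3), and 154 of them lay below 0. The median was -0.01 over all rows and -0.0003 over the 9602 rows with a mean at least as high as the lowest member. It was -0.11 over the other TEC rows, with 61.9% below 0 against 77% of the members, and -0.10 over all lncRNA rows. Over the 225 lncRNA rows with a mean at least as high as the lowest member it was -0.04 (58.2% below 0). A median below 0 was therefore not particular to the members. The median was -0.14 for the 174 members inside coding genes (143 below 0) and 0.06 for the 26 outside (11 below 0). For the 121 host genes themselves it was -0.005, with 9 called higher and 7 lower. Of the 17 members called lower, 16 lay inside a coding gene, all of them in an intron. Of the 8 called higher, 7 lay outside.

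**Figure D2:**
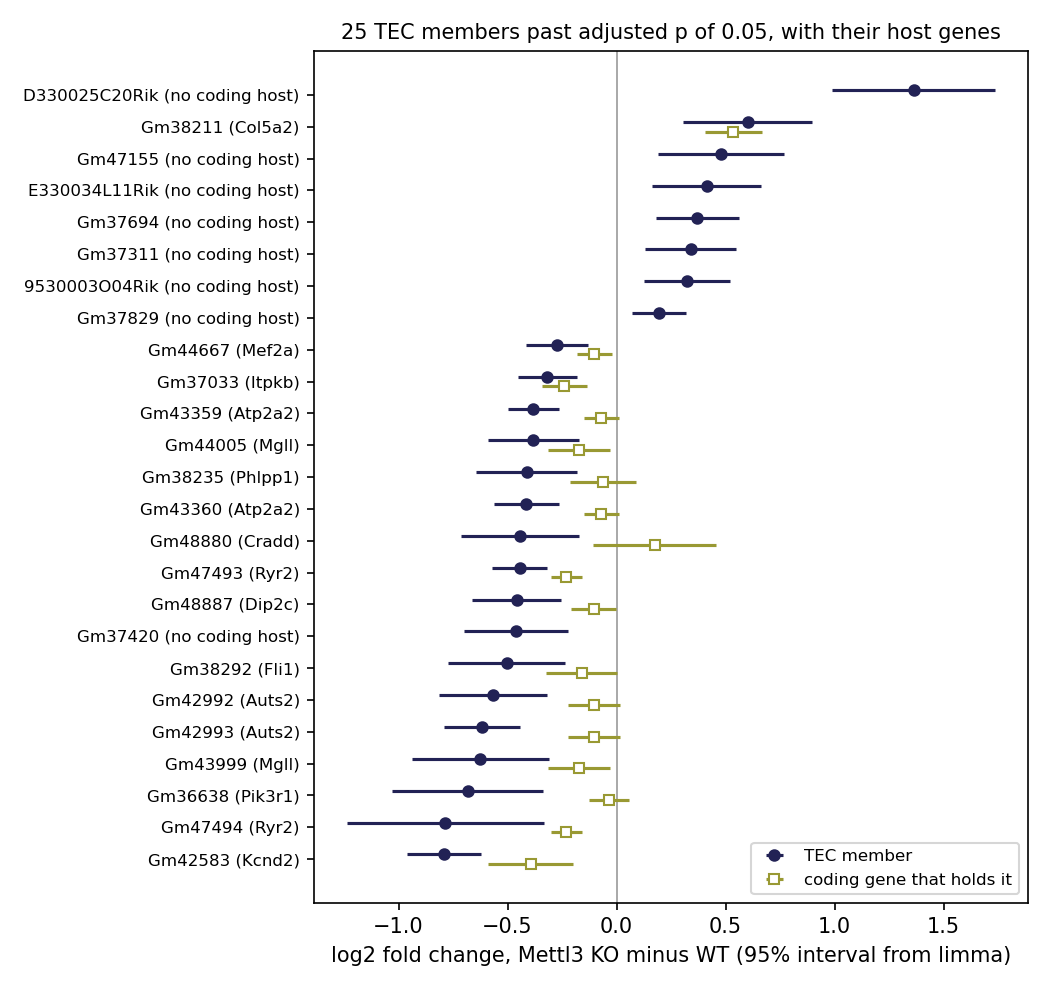
Log2 fold change of Mettl3 KO against WT (x axis) for the 25 members past an adjusted p of 0.05, with the host gene beside each member that has one; bars are 95% intervals from limma. The 17 lower members run from -0.79 to -0.27, and the 8 higher from 0.20 to 1.36.

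The lower members are given below by the known role of their host gene, an order that was not tested as a theme. The first lie in Ryr2, Atp2a2 and Kcnd2. Examples that did not pass, picked after their values were seen, were the 3 members in Camk2d, a calcium-dependent kinase (-0.10 to 0.12), the 2 in the calcium channel gene Cacnb2 (-0.32 and -0.16) and 1 each in the calcium channel gene Cacna2d1 (-0.19) and the potassium channel gene Kcnq1 (-0.33).
Gm47493, in Ryr2, was at 639, 559, 621 and 674 in WT against 412, 461, 474 and 482 in Mettl3 KO. No Mettl3 KO library reached a WT library, and the log2 fold change was -0.45 ± 0.06 (SE, adjusted p = 4.59e-05). Ryr2 itself changed by -0.23 ± 0.03 (adjusted p = 0.000137), and the difference between member and host did not pass (adjusted p = 0.818).
Gm47494 (chr13:11833134-11836620, minus strand), midway along the same gene, was at 81, 134, 172 and 60 in WT against 78, 52, 50 and 61 in Mettl3 KO. Its genotypes overlapped and its WT values spread widely, with a log2 fold change of -0.79 ± 0.22 (adjusted p = 0.0273). The call was lost without WT library 2 or 3 or Mettl3 KO library 2, 3 or 4 (adjusted p up to 0.129). With all 8 libraries it was also lost with a replicate block (adjusted p = 0.0671 in limma) or limma voom (0.0568).
Gm43359, in Atp2a2, was at 554, 561, 591 and 549 in WT against 387, 441, 458 and 447 in Mettl3 KO. The genotypes stood apart, at -0.38 ± 0.06 (adjusted p = 0.000113). A second member in the same gene, Gm43360 (chr5:122630085-122632971, minus strand), which is outside the naming rule and was singled out after its values were seen, was at 248, 237, 219 and 227 against 159, 187, 173 and 179. It had a log2 fold change of -0.41 ± 0.07 (adjusted p = 0.000678). Atp2a2 was at 4007, 3883, 4069 and 4221 in WT against 4118, 3823, 3900 and 3585 in Mettl3 KO, and did not pass (-0.07 ± 0.04, adjusted p = 0.316).
Gm42583 (chr6:21258920-21265619, plus strand) lies near the 5′ end of Kcnd2, which encodes a channel of the transient outward potassium current. It was at 314, 238, 314 and 280 in WT against 156, 173, 171 and 157 in Mettl3 KO, all below the lowest WT library. Its log2 fold change of -0.79 ± 0.08 (adjusted p = 1.95e-06) was the lowest among the members, and Kcnd2 was also lower, at -0.39 ± 0.09 (adjusted p = 0.0104, and 0.0605 without Mettl3 KO library 4).

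**Figure D3:**
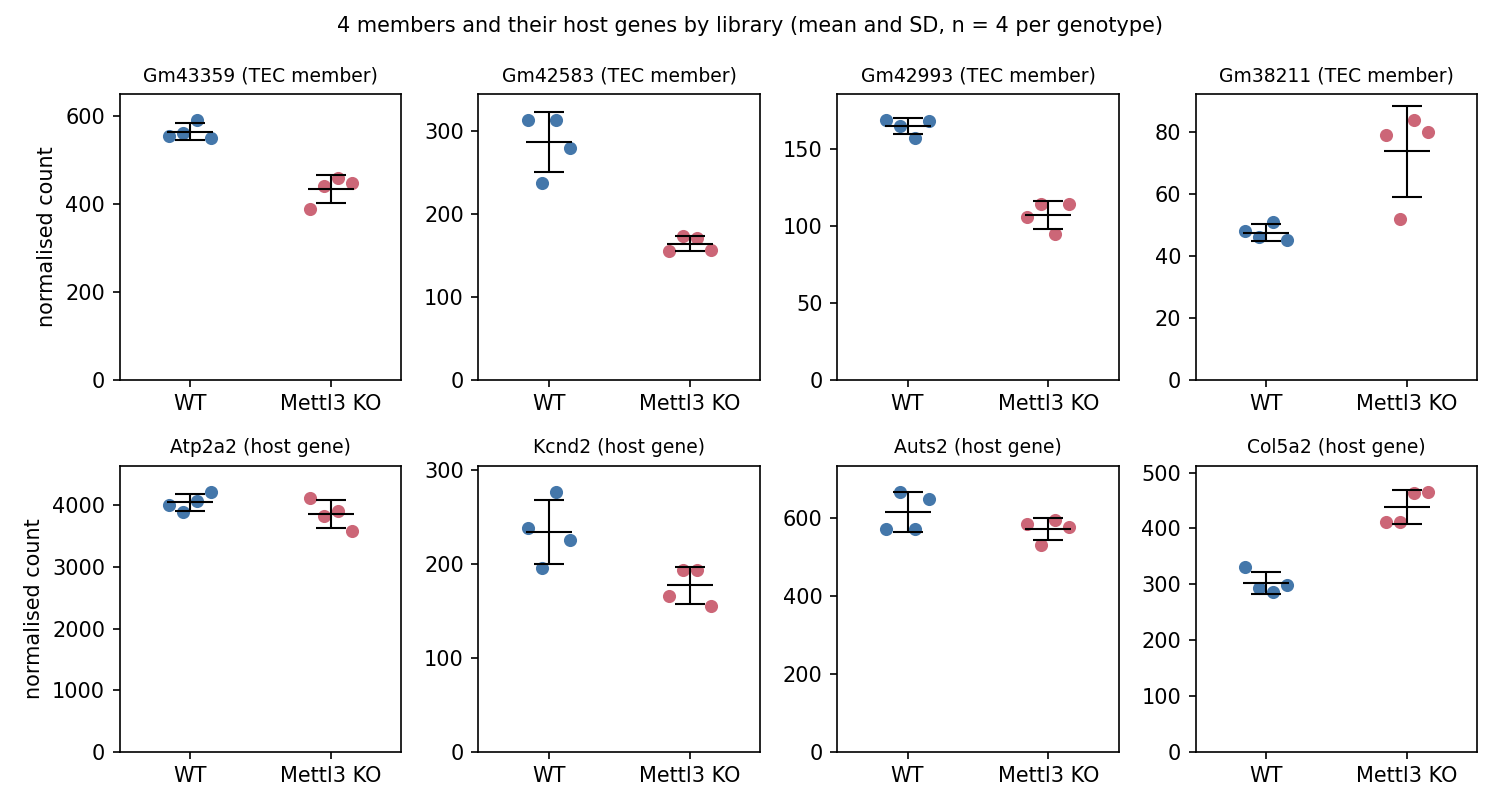
Normalised counts by library (y axes, each from 0) of Gm43359, Gm42583, Gm42993 and Gm38211 above and of their host genes Atp2a2, Kcnd2, Auts2 and Col5a2 below; points are libraries, bars the mean and SD, n = 4 per genotype. Gm43359 and Gm42993 separate the genotypes where Atp2a2 and Auts2 overlap, while Gm42583 and Gm38211 shift in the same direction as Kcnd2 and Col5a2.

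Other lower members lay in Auts2, Mef2a and Fli1. Auts2, which encodes a partner of Polycomb complexes, held 3 members of which 2 were called. Gm42993 (chr5:132044449-132051773, minus strand) was at 169, 165, 157 and 168 in WT against 106, 114, 95 and 114 in Mettl3 KO, a log2 fold change of -0.62 ± 0.08 (adjusted p = 4.62e-05). Gm42992 (chr5:132015388-132022223, minus strand) was at 78, 70, 71 and 85 against 48, 47, 53 and 56, a log2 fold change of -0.57 ± 0.12 (adjusted p = 0.00384). Neither overlapped between genotypes, whereas Auts2 at 571 to 668 and 530 to 594 did (-0.10 ± 0.06, adjusted p = 0.33).
Gm44667 (chr7:66918654-66921990, minus strand), in Mef2a, a transcription factor of muscle genes, was also outside the naming rule. It was at 268, 247, 284 and 262 in WT against 225, 216, 200 and 237 in Mettl3 KO (-0.27 ± 0.07, adjusted p = 0.0157, and up to 0.0777 without WT library 3 or Mettl3 KO library 2 or 3), and Mef2a did not pass (-0.10 ± 0.04, adjusted p = 0.126).
Gm38292 (chr9:32388629-32391673, minus strand), in Fli1, an ETS factor of endothelial and blood cells, was at 76, 58, 58 and 68 in WT against 48, 45, 45 and 43 in Mettl3 KO. The genotypes did not overlap, with a log2 fold change of -0.50 ± 0.13 (adjusted p = 0.0168, and up to 0.0799 without WT library 1 or 4 or Mettl3 KO library 4). Fli1 did not pass (-0.16 ± 0.08, adjusted p = 0.245). Endothelial markers were lower in the same hearts, from 5172 to 5361 in WT to 4466 to 4867 in Mettl3 KO, and their part in this result was not tested.

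The remaining lower members lay in host genes of varied function, and 1 outside coding genes. In Mgll, which encodes monoacylglycerol lipase, Gm43999 (chr6:88719709-88722597, plus strand) was at 62, 51, 82 and 65 in WT against 35, 47, 46 and 38 in Mettl3 KO. It changed by -0.63 ± 0.15 (adjusted p = 0.0116, and 0.0548 without WT library 3). A neighbour outside the naming rule, Gm44005, changed by -0.38 ± 0.10 (adjusted p = 0.0206). Its call was lost without WT library 3 or Mettl3 KO library 3 or 4 (up to 0.102). The same call was lost with a replicate block (adjusted p = 0.0634 in limma). Mgll did not pass (-0.17 ± 0.07, adjusted p = 0.145).
Gm36638 (chr13:101886228-101888396, minus strand), in Pik3r1, a regulatory subunit of phosphoinositide 3-kinase, was at 90, 81, 53 and 75 in WT against 35, 43, 46 and 61 in Mettl3 KO. The genotypes overlapped by 1 WT and 1 Mettl3 KO library, at -0.68 ± 0.17 (adjusted p = 0.0121, and up to 0.0642 without WT library 1 or 2 or Mettl3 KO library 2). Pik3r1 differed by -0.03 ± 0.04 (adjusted p = 0.751).
Gm37033 (chr1:180185214-180192563, plus strand), in Itpkb, an inositol trisphosphate kinase, was at 280, 313, 309 and 323 against 255, 254, 246 and 226. It changed by -0.32 ± 0.07 (adjusted p = 0.00292) and Itpkb by -0.24 ± 0.05 (adjusted p = 0.00293).
Gm48887 (chr13:9371463-9373015, plus strand), in Dip2c, was at 105, 100, 105 and 116 in WT against 78, 77, 70 and 84 in Mettl3 KO, without overlap (-0.46 ± 0.10, adjusted p = 0.00442). Dip2c did not pass (-0.11 ± 0.05, adjusted p = 0.223). Also called lower, and outside the naming rule, were Gm38235 in Phlpp1, an Akt phosphatase (-0.41 ± 0.11, adjusted p = 0.024), and Gm48880 in Cradd, a death-domain adaptor (-0.44 ± 0.13, adjusted p = 0.0378). The first call was lost without WT library 1 or 2 or Mettl3 KO library 3 (adjusted p up to 0.0963). The second was lost without any 1 of the WT libraries or Mettl3 KO library 2 or 3 (up to 0.128). A replicate block also ended the second call (adjusted p = 0.0704 in limma).
Gm37420 (chr14:61904669-61907580, minus strand) was the only lower member outside coding genes. It lies within Dleu2, a long non-coding RNA that hosts microRNAs, and was at 81, 70, 76 and 80 in WT against 59, 59, 53 and 51 in Mettl3 KO (-0.46 ± 0.11, adjusted p = 0.0133). Dleu2 did not pass (-0.13 ± 0.05, adjusted p = 0.147).

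Members called higher lay mostly beyond or between coding genes. D330025C20Rik (chr18:80405996-80409041, plus strand) was at 26, 37, 20 and 35 in WT against 57, 83, 87 and 78 in Mettl3 KO. All Mettl3 KO libraries were above all WT libraries, with a log2 fold change of 1.36 ± 0.18 (adjusted p = 3.15e-05), the highest among the members. It runs antisense to Kcng2, which encodes a modulatory potassium channel subunit and was itself higher by 0.29 ± 0.06 (adjusted p = 0.00555). Gm37015, a member on the sense strand inside Kcng2, was at 61, 56, 43 and 76 in WT against 48, 36, 58 and 45 in Mettl3 KO, and did not pass (-0.32 ± 0.17, adjusted p = 0.289).

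A locus on chromosome 16 held 6 members within Mir99ahg, a long non-coding RNA that hosts microRNAs. Mir99ahg was at 579, 571, 517 and 588 in WT against 666, 655, 632 and 620 in Mettl3 KO, higher by 0.19 ± 0.05 (adjusted p = 0.0203, and up to 0.0786 without WT library 3 or Mettl3 KO library 2). Gm37694 (chr16:77482165-77484297, plus strand) was at 101, 97, 101 and 89 in WT against 136, 112, 129 and 126 in Mettl3 KO, without overlap (0.37 ± 0.09, adjusted p = 0.0136). 9530003O04Rik (chr16:77451419-77452326, plus strand) was at 103, 86, 93 and 105 against 121, 115, 133 and 115, also without overlap (0.32 ± 0.09, adjusted p = 0.0382).
Gm37311 (chr16:77413199-77415222, plus strand) overlapped between genotypes, at 137, 105, 100 and 108 against 124, 156, 145 and 143 (0.34 ± 0.10, adjusted p = 0.0414). The others in Mir99ahg did not pass: C130023A14Rik differed by 0.40 ± 0.13 (adjusted p = 0.0562), Gm36963 by 0.06 ± 0.15 and Gm37606 by -0.08 ± 0.11. Gm37694 lost its call without Mettl3 KO library 3 (adjusted p = 0.0514). Of the fits without 1 library, 9530003O04Rik kept its call only without WT library 1 or 4 (adjusted p up to 0.143 otherwise). Gm37311 kept its call only without WT library 1 or Mettl3 KO library 1 (up to 0.15 otherwise). With all 8 libraries, Gm37311 was also lost with total (adjusted p = 0.0550 in limma) or upper quartile scaling (0.0544), limma voom (0.0618) or a replicate block (0.0909). 9530003O04Rik was lost with upper quartile scaling (0.0503) or a replicate block (0.0599). All 3 called members lost their calls without a mean-variance trend. C130023A14Rik passed without WT library 1 (adjusted p = 0.0181) or Mettl3 KO library 1 (0.0116).

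Downstream of coding genes, 3 members were called higher. E330034L11Rik (chr3:95546615-95548356, plus strand) began 7202 bases beyond Ensa, which encodes a phosphatase inhibitor, and was at 61, 50, 61 and 70 in WT against 81, 79, 89 and 73 in Mettl3 KO (0.41 ± 0.12, adjusted p = 0.0367). Gm47155 (chr13:93547291-93549465, plus strand) began 5654 bases beyond Homer1, which encodes a scaffold protein, and was at 44, 41, 59 and 44 against 76, 60, 67 and 59 (0.48 ± 0.14, adjusted p = 0.0365). Gm37829, beyond Fsd2, was at 394, 363, 400 and 428 against 447, 465, 483 and 420 (0.20 ± 0.06, adjusted p = 0.0464). The last of these overlapped between genotypes, and Gm47155 met at 59 in 1 library of each genotype. Of the fits without 1 library, E330034L11Rik and Gm37829 kept their calls only without WT library 4 or Mettl3 KO library 4. Gm47155 kept its call only without WT library 3. Adjusted p otherwise reached 0.134, 0.173 and 0.114 in E330034L11Rik, Gm37829 and Gm47155. With all 8 libraries, Gm37829 also lost its call with a replicate block (adjusted p = 0.0865 in limma), upper quartile scaling (0.0643) or limma voom (0.0513). E330034L11Rik lost it with a replicate block (0.0615). All 3 lost it without a mean-variance trend.

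Gm38211 (chr1:45524996-45532212, minus strand) was the only member inside a coding gene that was called higher. It lies in Col5a2, a chain of fibrillar collagen, and was at 48, 46, 51 and 45 in WT against 79, 52, 84 and 80 in Mettl3 KO (0.60 ± 0.14, adjusted p = 0.00983, and up to 0.0602 without Mettl3 KO library 3 or 4). Mettl3 KO library 2 lay far below the other 3, and still above all WT libraries. Col5a2 was higher by 0.53 ± 0.06 (adjusted p = 8e-06), and the member differed from it by 0.07 (95% interval -0.33 to 0.47). Fibroblast markers summed to 3648 to 4172 in WT and 4711 to 5671 in Mettl3 KO, and their part in this result was not tested.

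Members inside coding genes were next compared with their own host, as the difference of log2 values within each library. No member of 174 passed an adjusted p of 0.05 in limma, with a smallest adjusted p of 0.492. Over all 2222 pairs of a non-coding row and its host 0.045% were called (0.045% lower and 0% higher), so the test called almost nothing in this table. At an unadjusted p under 0.05 there were 11 members (6.32%), all lower relative to the host, against 7.25% of all pairs (5.49% lower), a share near the background. The difference did not overlap between genotypes for 19 members, all lower (10.9%), against 4.68% of all pairs, 3.69% lower and 0.99% higher. The median difference was -0.146 (-0.112 without Mettl3 KO library 1 and -0.155 without WT library 3) and 138 of 174 lay below 0 (79.3%), against 62.2% of all pairs and 63.4% of the 951 other TEC pairs. Taking 1 value for each of the 121 hosts, 93 were below 0. The median over all 2222 pairs was -0.11, over the other TEC pairs -0.12 and over the 356 lncRNA pairs -0.07. The median SE of the difference was 0.180 for the members and 0.314 over all pairs. No set of pairs of like level was made, so the shares without overlap and below 0 are not matched for level or precision. Whether they are particular to the members was not tested.

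Because the variance trend of that fit follows the mean difference and not the level, it was rerun with the trend on the level of the non-coding row, a choice made after the data were seen. It called 2 members, both lower than their host, of 6 pairs in all. Gm42993 minus Auts2 was at -1.75, -2.01, -1.86 and -1.95 on the log2 scale in WT, against -2.46, -2.21, -2.63 and -2.33 in Mettl3 KO, a difference of -0.51 (adjusted p = 0.0219). Gm42583 minus Kcnd2 was at 0.40, 0.28, 0.18 and 0.31 in WT, against -0.09, -0.16, -0.18 and 0.02 in Mettl3 KO, a difference of -0.40 (adjusted p = 0.0378). In both, every Mettl3 KO library lay below every WT library. In the planned fit the intervals of these differences were -0.875 to -0.153 and -0.803 to 0.00935.

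**Figure D4:**
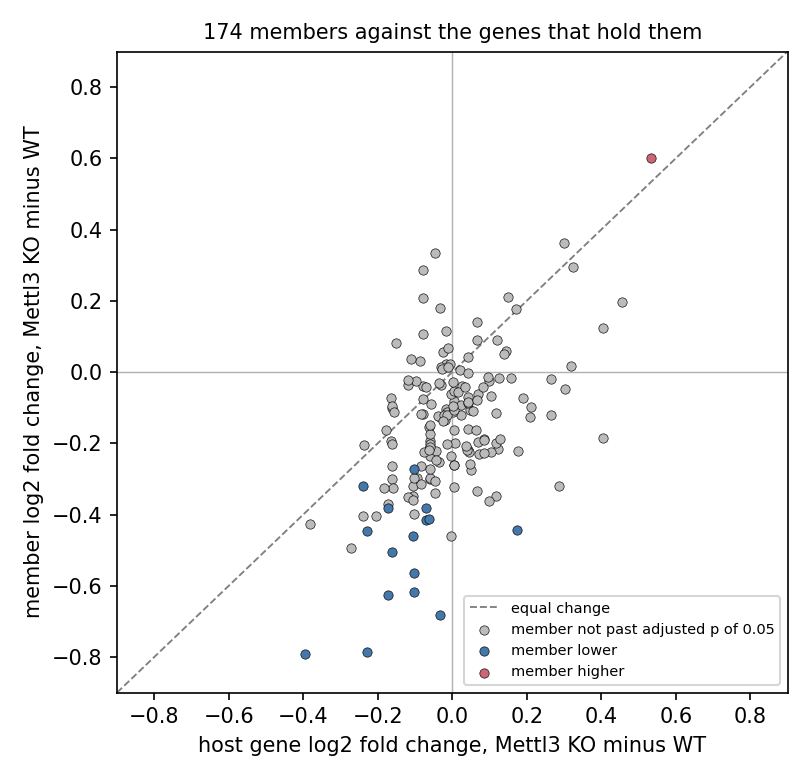
Log2 fold change of each of 174 members (y axis) against that of its host gene (x axis), Mettl3 KO minus WT, on a common scale, with the line of equal change dashed. Of the points, 138 lie below that line, and no single difference from the host passed the planned test (smallest adjusted p 0.492).

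Across the 174 members, the change of the member and that of its host had a Pearson r of 0.51 and a Spearman rho of 0.42. This is a description, since members of 1 gene share its value and all come from the same 8 libraries. Where the host was called lower (10 members in 7 genes), all 10 members lay below 0, with a median of -0.36 against -0.23 for the host. Where the host was called higher (11 members in 9 genes), the median was 0.02 for the members against 0.30 for the hosts. Since the hosts were picked here by their own change, these medians are a description. Of the members, 8 of 11 lay below a host called higher and 7 of 10 below one called lower, beside 138 of all 174. One case with a host called higher, chosen after its values were seen, was Gm43953 in Pdzrn3, which encodes a ubiquitin ligase. Pdzrn3 rose by 0.40 ± 0.06 (adjusted p = 0.000177), while Gm43953 was at 57, 55, 83 and 69 in WT against 60, 60, 58 and 51 in Mettl3 KO (-0.19 ± 0.14, adjusted p = 0.498). The second member in Pdzrn3, 9530086O07Rik, differed by 0.13 (adjusted p = 0.757). Of the 17 lower members, 12 had a host that did not pass and 4 a host called lower.

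Several genes held many members, and these are shown although they are outside the naming rule. Pcdh7, a protocadherin gene, held 10, spread along most of the gene. Each of the 10 had a log2 fold change below 0, from -0.30 to -0.15, and none passed the test (smallest adjusted p 0.121, for Gm42639). Their sum was 1115, 1022, 1012 and 1062 in WT against 895, 875, 941 and 881 in Mettl3 KO, without overlap, while Pcdh7 was at 1489 to 1582 and 1427 to 1541 (-0.06 ± 0.04, adjusted p = 0.44). Ank2, which encodes ankyrin-B, held 7 members with changes of -0.22 to 0.04, none called (smallest adjusted p 0.288, for Gm42972). Their sum of 592 to 673 in WT overlapped with 532 to 648 in Mettl3 KO. The 4 members in Dip2c summed to 384 ± 36.7 in WT and 295.5 ± 22.3 in Mettl3 KO, and the 4 in Fli1 to 387 ± 12.6 and 320.75 ± 11.2 (SD, n = 4 each). Picalm also held 4, with changes of -0.12 to 0.11, none called, and 1 of them below its host. Their sum of 542 to 671 in WT overlapped with 552 to 590 in Mettl3 KO. Members of 1 gene were measured in the same 8 libraries and are not replicates of each other.

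**Figure D5:**
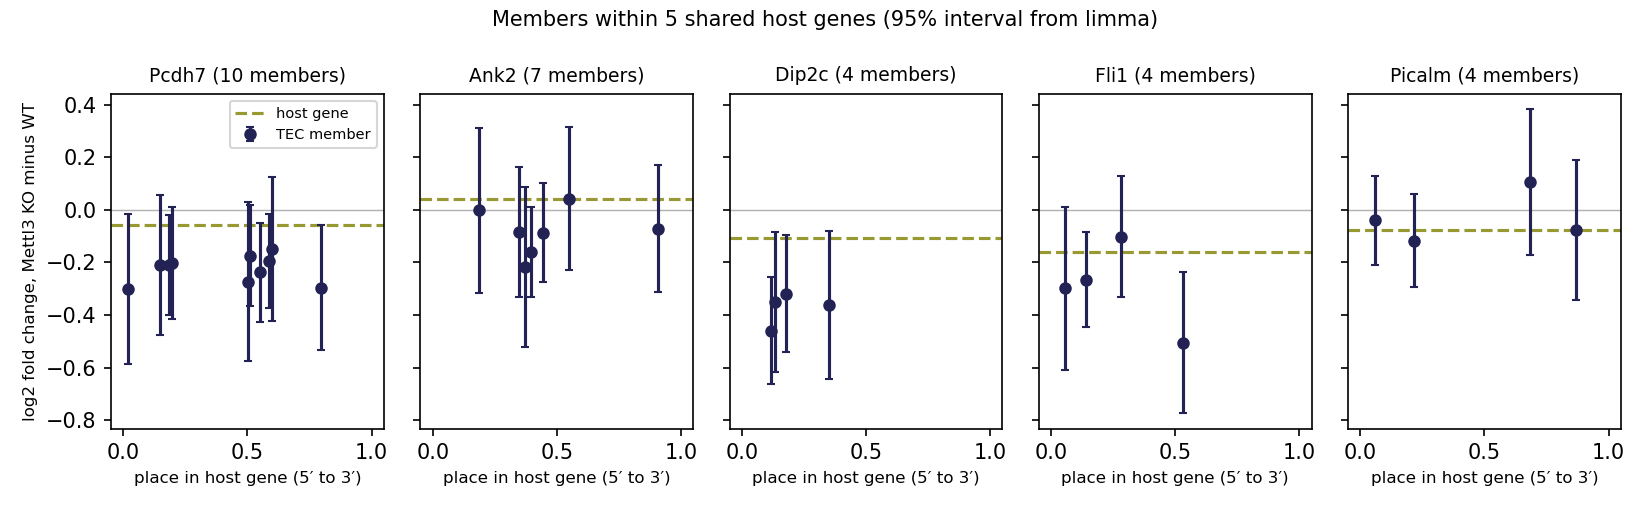
Log2 fold change of Mettl3 KO against WT (y axis) of the members in Pcdh7, Ank2, Dip2c, Fli1 and Picalm by their place along the gene (x axis, 0 at its 5′ and 1 at its 3′ end); bars are 95% intervals from limma and the dashed line is the host gene. All 10 members in Pcdh7 lie below the host line, the 7 in Ank2 lie between -0.22 and 0.04, and the 4 in Picalm between -0.12 and 0.11.

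Members lay more often towards the 5′ end of their host, with 67, 49, 42 and 16 in 4 successive stretches of equal length. The other TEC rows with a host also leaned that way, with 301, 275, 253 and 198. The median log2 fold change of the members was -0.20, -0.12, -0.13 and -0.11 in these stretches. In the same order, 9 (13.4%), 3 (6.12%), 4 (9.52%) and 0 members were called lower. Of all rows 3.19% were called lower, and 5.06% of rows with a mean at least as high as the lowest member. From the first stretch to the last, 57 of 67, 39 of 49, 29 of 42 and 13 of 16 members lay below their host. These shares were not tested against each other. The members called lower and those not called had like GC contents, with medians of 41.7% and 40.6%.

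The list ends at a tie. Gm38380 and Gm19721 were the last members, with means of 46.375 and 46.125, and Gm37303 (46.125) and Gm43313 (46) the first rows left out. Gm19721 was kept and Gm37303 left out by their order in the table. Gm19721, in Gnai2, a G protein subunit, was at 47, 49, 60 and 52 in WT against 42, 43, 42 and 34 in Mettl3 KO, and Gm37303 at 48, 64, 45 and 48 and at 49, 31, 38 and 46.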

How the data were processed

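RNA-seq was analysed from 8 mouse heart libraries, 4 WT and 4 Mettl3 KO. The authors trimmed 72-base single-end reads (Trimmomatic 0.39), aligned them to mm39 (STAR 2.7.11a), removed duplicates (Picard 3.1.1), multi-mapping, ribosomal and mitochondrial reads, counted exonic reads by strand with reads overlapping several genes left out (featureCounts 2.0.4), and normalised with DESeq2 1.36.0. The deposited values are normalised counts rounded to whole numbers, treated as a score, since raw counts cannot be read from them. Count models were therefore not used, and counting intervals were not given.

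Rows with a mean of at least 1 were fitted as log2(value + 1) with limma 3.58.1 (R 4.3.3), a mean-variance trend and genotype alone, two-sided, with Benjamini-Hochberg adjustment over 20313 rows. The host was the protein-coding gene overlapping by at least 1 base on the same strand, and member minus host was fitted over 2222 pairs. Both fits were tested on simulated data, and the outcome is not given here. Named were the 10 most abundant members, up to 10 highest and 10 lowest log2 fold changes among called members, up to 8 called differences from the host (none passed), 2 rows on each side of rank 200, the hosts of these, and Mettl3 and Esr1. Other named members were singled out after their values were seen. The members and lists were chosen with earlier results of these data known. No column of values was left unused (0). Exon structure and sequence came from GENCODE M21 (GRCm38) by gene identifier. Its coordinates served only to place members against host genes and their exons within that build, and those printed are of mm39. Alternatives covered scaling, pseudocount, filter, limma voom, variance trend, replicate block, list size and leaving out each library. P-values measure the spread between these 8 samples, since nothing beyond their labels says that each is a separate animal. No pair of libraries held identical values.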

Additional observations from a re-analysis of the deposited data

Results flagged for a closer look

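A gap search (Dixon's ratio of the outermost gap to the range, at its 95% critical value) over 60 sets of 4 libraries, for the named members, the members' sum and the library totals, marked 3 sets, and chance alone marks about 3. Gm47155 in WT had 1 library (WT 3) at 59 with the others at 41 to 44, a ratio of 0.833. Gm38211 in Mettl3 KO had library 2 at 52 with the others at 79 to 84, a ratio of 0.844. Gm19721 in Mettl3 KO had library 4 at 34 with the others at 42 to 43, a ratio of 0.889. Gm38211 stayed above WT in all of its Mettl3 KO libraries.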

How the results depend on the processing

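Of 25 member calls, 6 held under all 18 alternatives to the fit (D330025C20Rik, Gm37420, Gm42583, Gm42992, Gm42993 and Gm48887), 19 were lost in at least 1, and none of the 25 changed sign. Without a mean-variance trend, 321 rows were called (211 higher, 110 lower) and 6 members (1 higher, 5 lower), all 6 among the 25. The 100 most abundant TEC rows held 16 calls among 100 rows (5 higher, 11 lower), beside 25 among the 200 members (12.5%). Upper quartile scaling called 25 members (5 higher, 20 lower) and 1591 rows (841 higher, 750 lower). Against the host gene, limma voom called 3 members, all lower (Gm42993, Gm43359 and Gm43360), of 5 calls over all pairs (0.225%), and the variance trend on the level of the row, added after the data were seen, called 2, both lower, of 6 (0.27%).

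Leaving out 1 library at a time gave 1019 to 1596 called rows (613 to 913 higher, 406 to 683 lower), 13 to 24 called members (1 to 6 higher, 12 to 18 lower), none against the host, and a median difference from the host of -0.178 to -0.112. The lowest counts of rows and of members came without Mettl3 KO library 3, and the cause was not tested. Small values that changed sign ran from -0.139 to 0.0803 for Gm43313, -0.128 to 0.00522 for Gm37677, -0.0779 to 0.0256 for Gm43185, -0.0967 to 0.0343 for Gm45223, -0.0610 to 0.000506 for Gm38380, -0.00203 to 0.0689 for Nexn, -0.0103 to 0.0202 for Mbnl1, -0.0170 to 0.0945 for Gm45223 minus its host and -0.00225 to 0.196 for Gm38211 minus its host. Mbnl1 was also below 0 under total scaling (-0.00461), upper quartile scaling (-0.0110) and limma voom (-0.00487).

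Libraries of the same number did not deviate together (correlations 0.0522, 0.0421, -0.0414 and 0.0878), so the numbers do not pair them. With a replicate block 20 members were called (5 higher, 15 lower), 18 of them among the 25, 1346 of all rows, and none against the host. The values were normalised and rounded before deposit, so depth per library is not known here, and rounding limits the lowest rows most.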
